A study of Mus musculus with 6 samples.

Results

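The IFIT genes, the ISG15 pathway and a group of antiviral effectors were followed on 6 arrays of RNA from mouse cancer cell lines. The 10 genes, Ifit1, Ifit2, Ifit3, Isg15, Usp18, Herc6, Cmpk2, Rsad2, Ifi44 and Bst2, were chosen by symbol, with their levels and ratios on these arrays already known. In the platform annotation used here, 9 of them have a probe set that names no other gene, 1 each, out of 22180 genes so named, and Ifi44 was not analysed here. LLC is a Lewis lung carcinoma line, AE17 a mesothelioma line and MC38 a colon adenocarcinoma line. In every line 1 array was labelled sh Spp1, with the genotype given as depletion of Spp1 (osteopontin, a secreted integrin ligand), and 1 labelled sh Ctrl, with the genotype given as wild type. All cells grew in the same medium with fetal bovine serum and received no other treatment. Whether the sh Ctrl cells carried a control hairpin, and whether the sh Spp1 cells were a clone or a pool, is not given in the sources used here. The level of Spp1 was not analysed here, so each direction rests on the labels. Precision is limited by the number of arrays, since a value within a line is 1 array against 1 array, without replicate or test.

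These genes are transcribed when type I or type III interferon binds its receptor and a complex that includes IRF9 binds interferon response elements in promoters. IFIT proteins bind foreign RNA and hold back its translation. ISG15 is a ubiquitin-like protein that is joined to other proteins by UBA7, UBE2L6 and, in the mouse, the ligase HERC6, and is removed again by USP18, which also damps signalling at the interferon receptor. Viperin, encoded by Rsad2, makes a nucleotide analogue that ends viral RNA chains, with CMPK2 supplying its substrate, and tetherin, encoded by Bst2, holds budding virus on the cell surface. In tumour cells this programme can run without infection, for example after sensing of the cell's own nucleic acids.

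The genes lie in several places of the genome. In the RefSeq annotation of GRCm38.p6, Ifit2, Ifit3 and Ifit1 share a cluster on chromosome 19 with Ifit1bl1, Ifit3b and Ifit1bl2, and Rsad2 and Cmpk2 are neighbours on chromosome 12. Usp18 and Herc6 are both on chromosome 6 and are not neighbours. Isg15 is on chromosome 4 and Bst2 on chromosome 8. Promoter windows from RefSeq, from 250 bases before the transcription start to 50 bases after it, were matched by gene ID for 9 of the 10 genes, Ifi44 among them. Usp18 had none in the table. They were searched on both strands for the core of the interferon response element, GAAA followed by any 2 bases and a second GAAA, and overlapping matches were each counted.

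The core stood in a window of 5 of the 9 genes, Ifit1, Ifit3, Isg15, Rsad2 and Bst2, against 3.99% of the 27025 genes with a window. The longer form, in which CT follows the second GAAA, stood in those of Ifit1, Ifit3 and Bst2, against 0.303% of genes. A match is a description of letters and does not show a site in use. Of the windows shown, 5 hold matches, and that of Cmpk2, which has the highest ratio of the 9 genes in AE17, holds none. Capitals mark the matches, read 5′ to 3′ along the strand of the gene, so a match on the other strand appears as TTTC, 2 bases and TTTC. The windows are chr19:34640639-34640938 (+) for Ifit1, chr19:34583279-34583578 (+) for Ifit3, chr4:156200769-156201068 (-) for Isg15, chr12:26456403-26456702 (-) for Rsad2, chr8:71537423-71537722 (-) for Bst2 and chr12:26468965-26469264 (+) for Cmpk2, all in GRCm38.p6.
Ifit1: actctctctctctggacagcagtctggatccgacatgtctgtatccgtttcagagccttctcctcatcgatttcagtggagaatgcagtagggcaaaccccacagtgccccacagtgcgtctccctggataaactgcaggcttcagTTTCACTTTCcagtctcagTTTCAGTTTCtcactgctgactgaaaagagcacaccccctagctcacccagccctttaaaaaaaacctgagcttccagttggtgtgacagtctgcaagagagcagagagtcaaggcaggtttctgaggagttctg
Ifit3: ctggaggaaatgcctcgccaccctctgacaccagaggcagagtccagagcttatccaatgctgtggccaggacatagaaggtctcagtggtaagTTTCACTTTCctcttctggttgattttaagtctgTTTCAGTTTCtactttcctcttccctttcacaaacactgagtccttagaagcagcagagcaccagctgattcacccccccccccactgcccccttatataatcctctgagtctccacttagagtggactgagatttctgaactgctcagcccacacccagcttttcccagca
Isg15: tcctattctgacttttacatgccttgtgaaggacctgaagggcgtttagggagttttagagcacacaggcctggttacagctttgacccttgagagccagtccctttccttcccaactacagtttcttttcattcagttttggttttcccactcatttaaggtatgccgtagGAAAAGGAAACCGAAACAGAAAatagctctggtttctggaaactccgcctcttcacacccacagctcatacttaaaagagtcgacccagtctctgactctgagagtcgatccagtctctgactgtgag
Rsad2: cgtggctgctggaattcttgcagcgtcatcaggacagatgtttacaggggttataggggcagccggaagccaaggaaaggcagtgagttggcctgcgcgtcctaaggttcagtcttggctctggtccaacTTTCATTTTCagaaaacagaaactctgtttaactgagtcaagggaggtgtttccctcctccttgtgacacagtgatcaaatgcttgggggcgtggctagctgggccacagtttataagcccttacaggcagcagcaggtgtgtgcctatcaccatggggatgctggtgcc
Bst2: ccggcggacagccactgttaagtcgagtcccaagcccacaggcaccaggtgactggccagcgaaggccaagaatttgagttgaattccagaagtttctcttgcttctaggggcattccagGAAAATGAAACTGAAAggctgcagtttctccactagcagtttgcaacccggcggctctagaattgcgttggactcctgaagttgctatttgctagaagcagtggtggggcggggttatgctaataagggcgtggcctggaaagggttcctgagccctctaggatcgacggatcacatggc
Cmpk2: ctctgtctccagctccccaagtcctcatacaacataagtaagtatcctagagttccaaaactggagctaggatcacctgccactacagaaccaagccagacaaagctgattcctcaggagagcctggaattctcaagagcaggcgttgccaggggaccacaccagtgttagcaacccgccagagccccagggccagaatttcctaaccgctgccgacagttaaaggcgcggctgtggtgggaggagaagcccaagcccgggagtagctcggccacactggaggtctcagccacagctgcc

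In Isg15 the 3 matches overlap in 1 run of 22 bases, from 78 to 57 bases before the start. Ifit1 has 2 separate matches, both within the longer form. Its window shares 245 bases with 1 of the 2 windows of Ifit1bl2, a gene on the opposite strand, so the 2 genes have these matches in common. The second window of Ifit1bl2 shares 0 bases with that of Ifit1 and holds no match. Ifit3 and its close relative Ifit3b each have 2 matches, with the same letters. No match was found in the windows of Ifit2, Herc6, Cmpk2 and Ifi44, which says only that these letters are not in those windows.

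**Figure D1:**
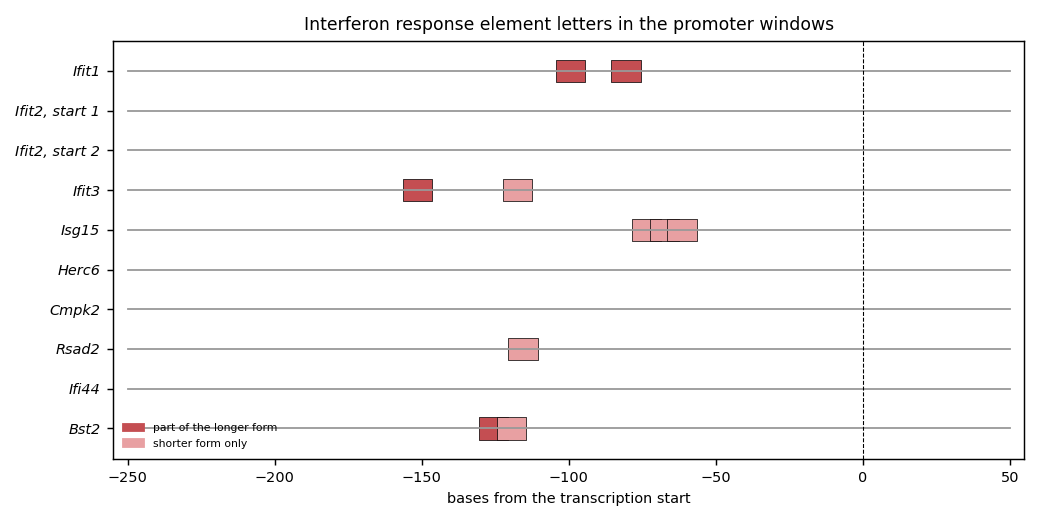
Positions of the element's core on either strand in the RefSeq promoter window of each gene, in bases from the transcription start (dashed line at 0). Dark boxes are part of the longer form and pale boxes of the shorter form only, and the boxes of Isg15 lie closest to the start.

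Levels are given as log2 intensity after quantile normalization, which brings the 6 arrays to 1 distribution. A log2 intensity of 4.49, the 30th percentile of the probe set means, was used as a floor under which values are set by background. All 9 genes passed it with their mean over the arrays. On single arrays, Isg15 lay under it on both LLC arrays. Probe sets differ in how brightly they bind, so a level is set against the same gene on other arrays and not against other genes.

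Most of the genes stood at higher levels in MC38 and AE17 than in LLC. For 7 of the 9 genes both LLC arrays were below the other 4, against 11.6% of the 16797 genes tested. For 8 of 9 the MC38 sh Ctrl array was the highest of the 6, against 11.5% of genes. The exception was Cmpk2, where the AE17 sh Spp1 array was higher. These levels were among the values known when the genes were chosen, so the counts describe them and test nothing.

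Of the IFIT genes, Ifit1 spanned the widest range. Its log2 intensity was 4.73 on the sh Spp1 array and 4.80 on the sh Ctrl array of LLC, 9.42 and 6.80 on those of AE17, and 9.15 and 10.83 on those of MC38, with sh Spp1 first in each line. It was therefore close to the floor on both LLC arrays, higher on the sh Spp1 array in AE17, and lower on it in MC38. The log2 ratios of sh Spp1 over sh Ctrl in LLC, AE17 and MC38 were -0.06, 2.63 and -1.68. In the values as deposited the last 2 were 2.72 and -1.28.

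Ifit2 binds viral RNA and forms complexes with the other family members. It stood at 7.03 on the sh Spp1 array and 7.79 on the sh Ctrl array of LLC, at 7.70 and 7.57 in AE17, and at 7.68 and 9.11 in MC38. The MC38 sh Ctrl array alone stood apart, and the other 5 arrays lay within 1 log2 unit of each other. Its ratios were -0.76, 0.13 and -1.42 in LLC, AE17 and MC38.

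Ifit3, which stabilises the binding of IFIT1 to RNA in human cells, differed from the other genes. Its level stayed between 6.40 and 6.85 on all 6 arrays, with an SD of 0.15, against SDs of 0.69 to 2.66 for the other 8 genes. It had ratios of 0.10, -0.23 and -0.21 in LLC, AE17 and MC38. Ifit3b, a near-identical copy of Ifit3 in the same cluster, did vary: its probe set gave 4.87 on the sh Spp1 and 3.82 on the sh Ctrl array of LLC, 5.23 and 4.34 on those of AE17, and 4.39 and 6.13 on those of MC38. Transcripts of these copies can bind each other's probes, so the split between Ifit3 and Ifit3b is uncertain.

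Isg15 itself was dim on these arrays. On the sh Spp1 and sh Ctrl arrays it was at 4.13 and 4.17 in LLC, both under the floor, at 6.87 and 5.21 in AE17, and at 6.13 and 7.73 in MC38. The ratio was 1.66 in AE17, or 3.17-fold higher with sh Spp1, and -1.60 in MC38, or 3.03-fold lower. The ratio in LLC is between background values and is not read.

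Usp18, the protease that removes ISG15, had the lowest ratio of the 9 genes in MC38. Its level there was 7.88 on the sh Spp1 array, against 11.88 on the sh Ctrl array, where it stood above 99.1% of all probe sets. That is a 16.0-fold difference, the 6th lowest ratio of 17014 genes. In AE17 it was at 10.97 with sh Spp1 and 9.09 with sh Ctrl, and in LLC at 5.15 and 6.06. It was thus lower with sh Spp1 in MC38 and LLC and higher with it in AE17.

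Herc6, the main ISG15 ligase of the mouse, was the only one of the 9 genes with a negative ratio in all 3 lines, although in the values as deposited Ifit3 and Bst2 had one too. It was at 6.78 with sh Spp1 and 7.79 with sh Ctrl in LLC, at 8.46 and 9.58 in AE17, and at 8.05 and 10.11 in MC38. Each sh Spp1 array was below the sh Ctrl array of its line by at least 1 log2 unit, with ratios of -1.01, -1.13 and -2.06. Only 5 of 16797 genes, or 0.0298%, met that in every line, and 15.5% had a ratio below 0 in every line. The size depended on the scaling: after centring of each array on its median the ratios were -0.67, -0.57 and -1.48, and in the values as deposited -1.46, -1.02 and -1.66. In AE17, Herc6 went against Isg15 and Usp18, the modifier and the protease of the same pathway.

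The neighbours Cmpk2 and Rsad2 gave similar patterns. Cmpk2, a mitochondrial nucleotide kinase, was at 10.85 with sh Spp1 and 7.00 with sh Ctrl in AE17, and at 7.71 and 10.40 in MC38. Its AE17 ratio of 3.84, a 14.4-fold difference, was the 56th highest of 17678 genes. The MC38 ratio was -2.69, or 6.46-fold lower. In LLC both arrays were low, at 4.99 and 5.20.

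Rsad2 was at 10.20 with sh Spp1 and 7.62 with sh Ctrl in AE17, and at 8.89 and 11.33 in MC38. The ratios of 2.58 and -2.43 were thus of like size and opposite sign. In LLC it was at 4.83 and 5.46, with a ratio of -0.64. On the MC38 sh Ctrl array Rsad2 lay above 98.2% of probe sets, and on the LLC sh Spp1 array above 38.2%.

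Bst2 was less variable. Its level was 6.40 with sh Spp1 and 6.27 with sh Ctrl in LLC. In AE17 it was 7.96 and 8.48, and in MC38 8.01 and 9.61. The ratio of -1.60 in MC38 was 3.03-fold lower, whereas -0.51 in AE17 and 0.13 in LLC were within the central range of all genes. Unlike Ifit1, Isg15, Usp18, Cmpk2 and Rsad2, it was not higher by the threshold on the AE17 sh Spp1 array.

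**Figure D2:**
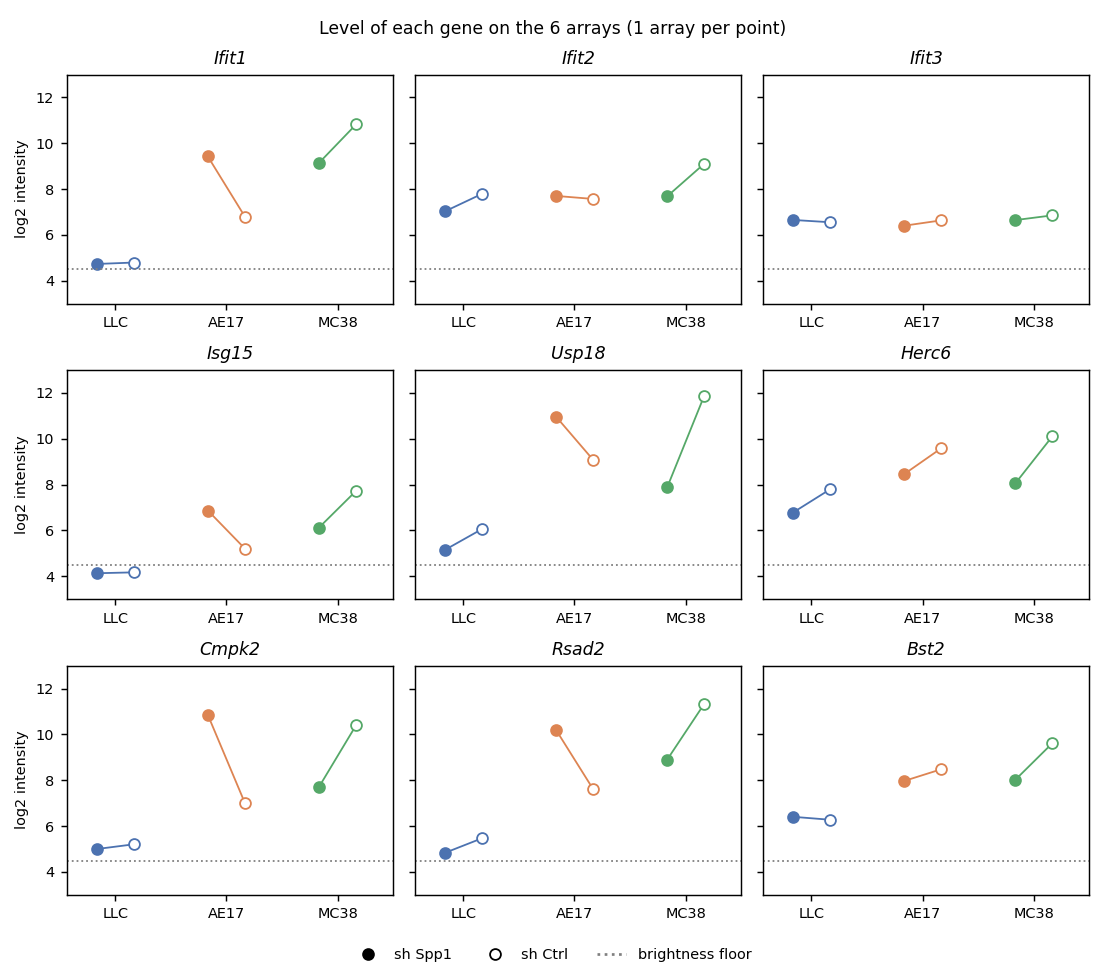
Log2 intensity (y axis) of each gene on the sh Spp1 array (filled) and sh Ctrl array (open) of LLC, AE17 and MC38. Each point is 1 array, and the dotted line is the floor at 4.49. Lines in MC38 all run up to sh Ctrl, though that of Ifit3 does not after centring. In AE17 those of Ifit1, Isg15, Usp18, Cmpk2 and Rsad2 run down to sh Ctrl by at least 1 log2 unit, and that of Ifit2 by 0.13.

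The comparison of sh Spp1 with sh Ctrl within each line asks how these transcripts differ between cells labelled as depleted of Spp1 and as wild type. In MC38 all 9 genes had a ratio below 0 (8 after centring, with Ifit3 at 0.01), and 8 of 9 were lower by at least 1 log2 unit, against 1.7% of the 17014 genes that reached the floor on either array. None was higher by that much, against 0.882% of genes. The median ratio of the 9 was -1.68, and that of all genes was 0.02. Only Ifit3, at -0.21, fell short of the threshold.

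In AE17 the genes divided. Ifit1, Isg15, Usp18, Cmpk2 and Rsad2, 5 of 9, were higher by at least 1 log2 unit, against 9.9% of 17678 genes. Herc6 alone was lower by that much, against 8.71% of genes. Ifit2, Ifit3 and Bst2 had ratios between -0.51 and 0.13. The median was 1.66, with -0.04 for all genes, in the line whose sh Spp1 and sh Ctrl arrays differed at more genes than those of the other lines.

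In LLC the ratio furthest from 0 was that of Herc6, at -1.01. Of the 8 at or above the floor, Herc6 was lower by at least 1 log2 unit, against 1.81% of 17054 genes, and 0 were higher, against 1.75%. The median was -0.42, with 0.03 for all genes. Usp18 had -0.91, Ifit2 -0.76 and Rsad2 -0.64, so 4 of 8 were lower by at least 0.58 log2 units, against 7.65% of genes. Of these, Rsad2 on both arrays and Usp18 on the sh Spp1 array were near the floor. At 0.58 log2 units 8 of 9 were lower in MC38, against 5.38% of genes. In AE17 5 of 9 were higher and 1 lower, against 18.9% and 19.7%. The LLC count depended on the scaling: in the values as deposited 5 genes were lower by at least 1 log2 unit, against 17.1% of 18760 genes, and after centring of each array 0 were. The LLC median itself was -1.03 in the values as deposited, with Isg15 counted, beside -0.46 for all genes tested. In the normalized values it was -0.21 when Isg15, under the floor, was counted too.

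**Figure D3:**
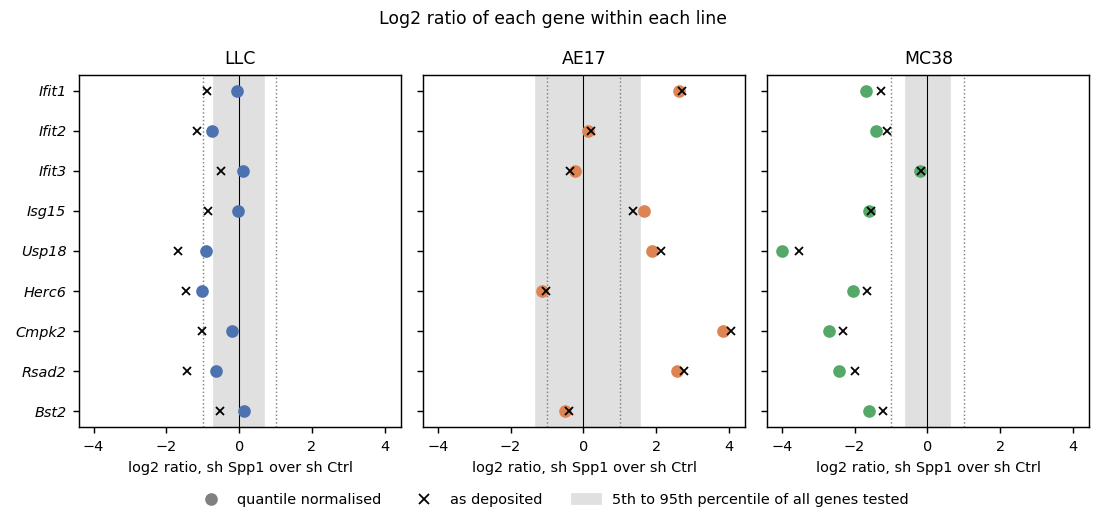
Log2 ratio of sh Spp1 over sh Ctrl (x axis) for each gene in LLC, AE17 and MC38, quantile normalised (circles) and as deposited (crosses), with dotted lines at 1 log2 unit either way. The grey band spans the 5th to 95th percentile of all genes tested; in MC38 8 of 9 genes lie below it.

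Ifit1, Isg15, Usp18, Cmpk2 and Rsad2 were higher by at least 1 log2 unit in AE17 and lower by as much in MC38. That pattern was found for 96 of 16797 genes, or 0.572%. With limma, blocking on the line and adjusting by Benjamini-Hochberg, 0 of 16797 genes (0%) reached an adjusted p under 0.05 over the 3 lines, and 1017 genes, or 6.05%, had an unadjusted p under 0.05. Adjusted p in that fit ran from 0.723 to 0.998 for the 9 genes. They were chosen on this contrast, so these values are given as a description. The difference between lines has no residual degrees of freedom and was not tested.

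The order of MC38 and AE17 differed between the sh Ctrl and the sh Spp1 arrays. Among the sh Ctrl arrays all 9 genes were higher in MC38 than in AE17, against 41.3% of 16797 genes, by a median of 2.52 log2 units. Ifit1 differed by 4.03, Rsad2 by 3.71 and Cmpk2 by 3.40. Among the sh Spp1 arrays 2 of 9 were higher in MC38, against 46.3% of genes, and the median difference was -0.40. Cmpk2 then differed by -3.14, Usp18 by -3.09 and Rsad2 by -1.30, whereas Ifit1, Ifit2, Ifit3 and Bst2 lay within 0.3 log2 units of each other in the 2 lines. Higher in MC38 among sh Ctrl arrays and lower among sh Spp1 arrays were 7 of 9, against 18% of genes. In the values as deposited 5 of 9 were higher in MC38 among the sh Spp1 arrays, and 4 of 9 changed order. Single arrays give no spread by which to tell neighbouring levels apart.

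**Figure D4:**
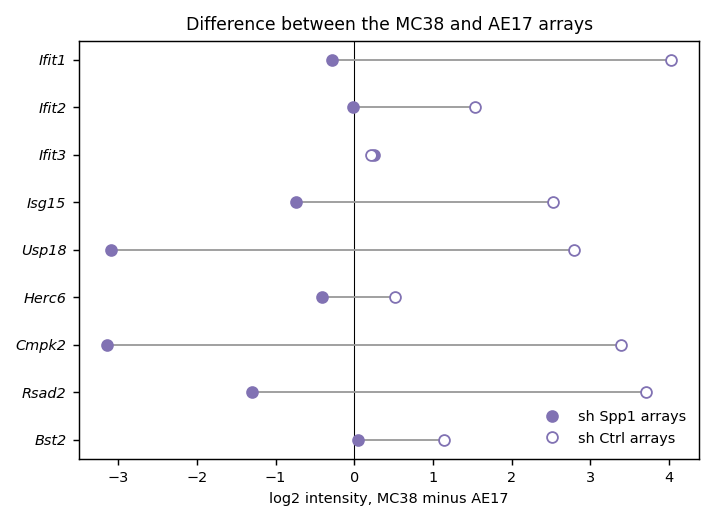
Log2 intensity in MC38 minus that in AE17 (x axis) for each gene, among the sh Spp1 arrays (filled) and the sh Ctrl arrays (open). All open points lie to the right of 0, and the filled points of Usp18 and Cmpk2 lie furthest to the left.

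Other genes of the pathway were taken from lists chosen with earlier results of these data known. Of the ISG15 conjugation partners, the activating enzyme Uba7 had ratios of -0.24, 1.92 and -1.71 in LLC, AE17 and MC38, close to those of Isg15 in the last 2. The conjugating enzyme Ube2l6 had -0.61, 0.70 and -1.95, and Trim25, a further ligase, -0.07, 0.70 and -1.15. Arih1, a ligase that also acts on cullin complexes, had -0.04, -0.95 and -0.13. In MC38 3 of these 4 were lower by at least 1 log2 unit, against 1.7% of all genes. In AE17 1 was higher, against 9.9%, and in LLC 0 were higher or lower, against 1.75% and 1.81%. With 4 genes the AE17 and LLC counts are too small to read.

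Of the IFIT relatives, Ifit1bl2 and Ifit3b were also lower with sh Spp1 in MC38, and Ifit1bl1 was under the floor on both MC38 arrays. Ifit1bl2 was at 5.01 with sh Spp1 and 6.84 with sh Ctrl in MC38, at 5.17 and 5.16 in AE17, and at 5.18 and 4.85 in LLC. Ifit1bl1 passed the floor on 1 array, with 4.77 on the AE17 sh Spp1 array. Ifit3b had ratios of 1.05, 0.89 and -1.75 in LLC, AE17 and MC38, 3 of its 6 values being under the floor.

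Of 57 other interferon-stimulated genes, 50 had a probe set of their own. In MC38 36 of the 48 at or above the floor were lower by at least 1 log2 unit, against 1.7% of all genes. There 0 were higher, against 0.882%, and the median was -1.93. In AE17 23 of 48 were higher and 0 lower by that much, against 9.9% and 8.71%, with a median of 0.91. In LLC 0 of 40 were higher and 1 lower, near the 1.75% and 1.81% of all genes, with a median of -0.24. Oas2, a synthetase that activates RNase L, had -0.69 in LLC, 0.85 in AE17 and -4.49 in MC38, while the regulator Trim30a had -0.53, -0.96 and -2.85, the first under the floor on both arrays. Ifitm1 and Ifitm2, membrane proteins that restrict virus entry, had ratios above 0 in all lines, at 0.46, 0.56 and 0.80 and at 0.50, 1.40 and 0.25, but in the values as deposited those in LLC were -0.33 and -0.21.

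Of the signalling genes, some are induced by interferon itself and others, such as the receptors and kinases, are made at all times. Irf7, which drives further interferon production, had 0.06, 1.18 and -3.68 in LLC, AE17 and MC38. Other inducible factors on the list were Irf9, with 0.11, 0.94 and -1.82, Stat2, with -0.09, 0.17 and -2.08, and Irf1, with -0.87, 0.91 and -0.90. The type I receptor chains Ifnar1 and Ifnar2 had 0.14 and -0.41 in MC38, 0.02 and 0.83 in AE17, and -0.47 and 0.15 in LLC. The type II chains Ifngr1 and Ifngr2 had -0.44 and -0.21 in MC38, -0.39 and 0.52 in AE17, and -0.69 and -0.35 in LLC.

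The kinases Jak1 and Tyk2 had 0.03 and 0.20 in MC38, -0.21 and -0.28 in AE17, and -0.14 and -0.22 in LLC. Jak2 had -0.18, -1.13 and 0.06 in MC38, AE17 and LLC, and Irf3, which acts upstream of interferon, 0.26, 0.13 and -0.32. Socs1, a feedback inhibitor of JAK kinases, was higher in AE17, at 1.70, and had 0.37 in MC38 and 0.54 in LLC. In MC38 3 of 13 signalling genes were lower by at least 1 log2 unit, against 1.7% of all genes, and 0 higher, against 0.882%. In AE17 2 were higher and 1 lower, near the 9.9% and 8.71% of all genes. In LLC 0 were higher or lower, near the 1.75% and 1.81% of all genes.

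Of 10 nucleic acid sensing genes at or above the floor in MC38, 5 were lower and 0 higher by at least 1 log2 unit. The shares of all genes there were 1.7% and 0.882%. In AE17 5 of 10 were higher, against 9.9% of all genes, and 1 was lower, near the 8.71% of all genes. In LLC 0 of 9 were higher or lower, near the 1.75% and 1.81% of all genes. Dhx58, a regulator of the RNA sensors, had -0.62 in LLC, 1.62 in AE17 and -2.96 in MC38, while the endosomal RNA receptor Tlr3 had -0.67, -0.68 and -1.56. The DNA sensor Cgas and its adaptor Sting1 were not lower with sh Spp1 in MC38. Cgas was at 6.91 with sh Spp1 and 6.59 with sh Ctrl in MC38, at 5.53 and 4.54 in AE17, and at 3.90 and 3.50 in LLC, under the floor. Sting1 was at 10.42 and 10.39 in MC38, 10.53 and 9.39 in AE17, and 9.11 and 9.42 in LLC.

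No interferon ligand differed by 1 log2 unit in any line among those at or above the floor, 11 in each of LLC and AE17 and 10 in MC38. Of all genes, 1.75% were higher and 1.81% lower by that much in LLC, and 0.882% and 1.7% in MC38. The shares in AE17 were 9.9% and 8.71%. With so few ligands these counts are too small to read. Of the 19 with a probe set, 8 lay under the floor on all 6 arrays. Ifnb1, the interferon that many cell types make first, was at 2.96 with sh Spp1 and 3.52 with sh Ctrl in AE17, at 3.46 and 3.29 in MC38, and at 3.38 and 3.46 in LLC, all under the floor. Ifna9 and Ifnk, which had the lowest mean ratios of the list, and Ifna2, which had the highest, were under the floor on all arrays, and Ifne was near it. Other ligand probe sets were above the floor on all 6 arrays. Among these were Ifna1, between 6.82 and 7.62, Ifna4, between 6.41 and 7.60, and Ifnl2, between 7.11 and 7.63. The alpha interferon genes are near-identical copies, so their probe sets are uncertain.

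**Figure D5:**
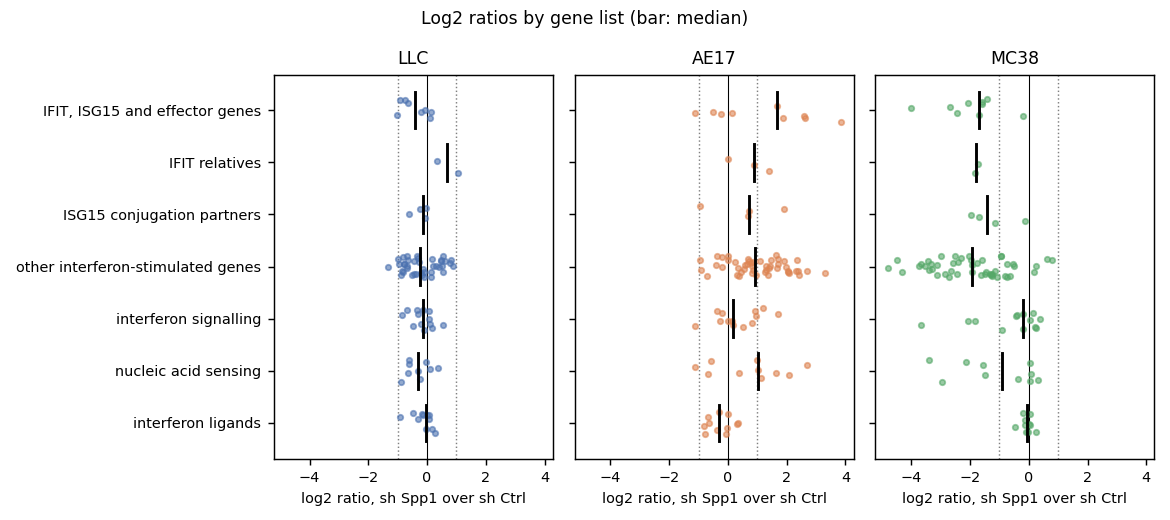
Log2 ratio of sh Spp1 over sh Ctrl (x axis) for each gene at or above the floor, by list and line; each point is a gene and each bar the median of its list. Other interferon-stimulated genes lie mostly left of 0 in MC38 and right of 0 in AE17. Interferon ligands lie within 1 log2 unit of 0 in all lines, and in AE17 8 of 11 lie left of 0, with a median of -0.30.

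Among the 1075 other genes tested with an SD of at least 1 log2 unit over the arrays, those whose levels were most like the mean of the 9 genes were ranked by Pearson's r over the 6 arrays. The arrays share 3 lines, and r is given as a description. Xaf1 had 0.994, Oasl2 0.993, Parp12 0.986, Dhx58 0.985, Psmb8 0.984, Parp9 0.984, Lgals3bp 0.983, Irf9 0.981, Parp14 0.979 and Ddx58 0.977. All of them are on the lists named above. Xaf1, for example, was at 4.94 with sh Spp1 and 5.61 with sh Ctrl in LLC, at 9.17 and 7.48 in AE17, and at 7.40 and 9.99 in MC38. Within the 9 genes, r with the mean of the other 8 was 0.911 to 0.988 for Ifit1, Isg15, Usp18, Cmpk2, Rsad2 and Bst2. It was lower for Herc6 at 0.778, Ifit2 at 0.759 and Ifit3 at 0.242.

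Markers of the labelled tissues were mostly near the floor. In MC38 the 6 intestinal epithelium markers lay between 3.80 and 5.77 with sh Spp1 and between 3.54 and 5.77 with sh Ctrl. In LLC the 5 lung epithelium markers reached 5.59 with sh Spp1 and 5.48 with sh Ctrl. Of the mesothelium markers in AE17, Msln was at 5.34 and 5.13, against 9.96 and 9.87 in MC38, and Pdpn at 9.75 and 6.99, with sh Spp1 first. Bnc1 ran the other way in AE17, at 5.41 and 6.62, and of the 6 mesothelium markers there 3 had a ratio above 0 and 3 below, with a median of 0.01. Of 9 leukocyte markers, 3 to 5 were under the floor on each array, and the defining marker Ptprc was under it on all 6. The log2 of their summed intensity was 8.46 with sh Spp1 and 8.05 with sh Ctrl in LLC. In AE17 it was 9.27 and 9.08, and in MC38 8.33 and 8.36. In AE17 1 leukocyte marker was higher by at least 1 log2 unit, Cd68 at 1.40, and 2 were lower, Lyz2 at -2.38 and Cd79a at -1.06. The shares of all genes there were 9.9% and 8.71%. In MC38 Cd79a was higher, at 1.34, against 0.882% of all genes, and Cd68 had -0.54. In LLC none passed that threshold, against 1.75% higher and 1.81% lower of all genes, and Cd68 had 0.92. The part of these markers in the results above was not tested. In RNA of whole cultures, fewer cells expressing a gene and less RNA per cell cannot be told apart.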

How the data were processed

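RNA from 3 cultured mouse lines was labelled with biotin and hybridised to 6 whole-transcript arrays. The deposited table gives linear intensity values for 41345 probe sets; RMA is named in the submitters' processing notes and Genespring 12.5 in the design text. Their medians ran from 26.6 to 64.2, so the values were log2 transformed and quantile normalized (limma 3.58.1, R 4.3.3). Groups came from the titles. The cell line is the pair and the block of the fit. The p-values therefore set the mean ratio of sh Spp1 over sh Ctrl against how that ratio varied between lines. Genes were named from 23521 probe sets with 1 symbol, the brightest standing for a gene, and 16797 genes whose mean reached the 30th percentile were tested. In the gene lists 2 older symbols were read as Cgas and Sting1 through RefSeq synonyms; no symbol of the probe annotation was changed. From each pathway list the 2 highest and 2 lowest mean ratios are named, in full for signalling and lists of up to 4. Ifnb1, Ifna1, Ifna4, Ifnl2, Msln, Pdpn, Bnc1, Ptprc, Cd68, Lyz2 and Cd79a were chosen after their values were seen. Likeness names the top 10. The genes and lists were chosen with earlier results of these data known. The fit was tested on simulated data in which 200 genes changed alike in every line. That does not show how it performs where the lines differ. Alternatives covered scaling, filter, probe sets, thresholds, block, weights, variance prior and each line left out.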

Additional observations from a re-analysis of the deposited data

Results flagged for a closer look

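Some ratios lay at least 1 log2 unit above 0 in 1 line and at least 1 below 0 in another. With 1 array per group and line, these differences were not tested. AE17 ratio minus MC38 ratio was 6.53 for Cmpk2, 5.88 for Usp18, 5.02 for Rsad2, 4.31 for Ifit1 and 3.26 for Isg15. Among the other genes named, the same difference was 3.16 for Ddx58, 4.58 for Dhx58, 4.86 for Irf7, 3.73 for Lgals3bp, 5.09 for Oasl2, 2.52 for Parp12, 4.18 for Parp14, 3.03 for Parp9, 3.63 for Uba7 and 4.29 for Xaf1. Ifit1bl1 had 2.47, but both MC38 arrays and the AE17 sh Ctrl array were under the floor, so this value is not read. For Ifit3b the difference was between LLC and MC38, at 2.79, with the LLC sh Ctrl and MC38 sh Spp1 arrays under the floor. Of the cell type markers named, Cd79a ran the other way, with ratios of -1.06 in AE17 and 1.34 in MC38.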

How the results depend on the processing

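With limma, 0 genes reached the threshold in every fit run: with each line left out (0 to 0), no replicate block (0), as deposited, centred, other filters, the mean of probe sets, array weights, another variance prior and an adjusted p under 0.1. Unadjusted p under 0.05 was reached by 1017 genes, 579 higher and 438 lower, against 455 and 1715 as deposited, 4170 and 162 with each array centred, and 630 in all with no block. The smallest adjusted p was 0.126 with centring and 0.382 as deposited. In LLC the count of genes lower by the threshold, 1, became 5 as deposited (17.1% of all genes), 0 with centring, 4 at 0.58 log2 units (7.65%) and 0 at 2. In AE17 the count lower, 1, became 0 with centring and 0 at 2 log2 units, and the count higher, 5, became 3 at 2. In MC38 8 became 7 with centring and 4 at 2 log2 units. The longer motif was met by 3 genes in place of 5. Chosen after seeing the data, the same scalings were run on the counts by level. In the values as deposited, genes higher in MC38 than in AE17 among the sh Spp1 arrays were 5 in place of 2, those that changed order between the arms 4 in place of 7, and those below 0 in all 3 lines 3 in place of 1; the other counts by level moved by at most 1 gene. The median ratios kept their sign under each alternative run. That of LLC, -0.42, became -1.03 as deposited, with Isg15 counted, and -0.31 with centring. It was -0.21 with no filter and -0.70 with a filter at the 50th percentile. The medians of AE17 and MC38 ran from 1.36 to 1.81 and from -1.68 to -1.37. Relative to the median of all genes, the 9 genes' median was -1.70 in MC38, 1.70 in AE17 and -0.23 in LLC, and -1.63, 1.59 and -0.57 both as deposited and centred. The median of all genes itself was -0.46, -0.23 and 0.08 as deposited in LLC, AE17 and MC38, and 0.33, 0.22 and 0.26 centred. No ratio past 1 log2 unit changed sign. For arrays, signal near background limits Isg15, Ifit1, Cmpk2 and Rsad2 in LLC, and Usp18 on the LLC sh Spp1 array.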
